A study of Mus musculus with 2 samples.

Results

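The Mmp12 and Gpr137b-high macrophages were the 718 of 14351 tumor mononuclear phagocytes with the highest summed level of 4 genes, Mmp12, Gpr137b, Bhlhe41 and Akr1b8. Each gene's share of a cell's unique molecular identifiers (UMIs) was divided by that gene's mean share over all cells of both libraries, the 4 ratios were added, and the top 5% of the pooled cells were taken as members. The 4 levels therefore chose the members, and their values below are a description with no test. Of the members, 328 came from the Fcmr+/+ library and 390 from the Fcmr-/- library.

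The cells were MerTk+ CD64+ mononuclear phagocytes (TMPs) sorted by flow cytometry from B16 melanoma tumors and sequenced with 10X Genomics droplets, in 1 library per genotype. Both groups were C57Bl/6 mice that carried B16F0 cells, a transplanted mouse melanoma line, and received no drug or other treatment that the labels name. The Fcmr+/+ mice had both copies of Fcmr, the putative receptor for soluble IgM. The Fcmr-/- mice lacked it in every cell, so a change in macrophages can also come through other cells of the host. Age and the number of mice behind each library are not given in the sources used here. With 1 library per genotype there was no test between genotypes and none of members against remaining cells over replicates. The 95% intervals below are exact (Poisson for a level, conditional binomial for a ratio of levels, Clopper-Pearson for a share) and take in no error but that of counting.

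The libraries held 131062107 and 125802196 UMIs in 6392 Fcmr+/+ and 8017 Fcmr-/- cells. Cells with 200 to 7000 genes and at most 30% mitochondrial UMIs numbered 6352 and 7999. The libraries shared 73 cell barcodes, and 5 members carried one of these. Fcmr itself had 0 UMIs in Fcmr+/+ members, which allows up to 3 of 6427228 UMIs, and 2 UMIs in Fcmr-/- members, too few to check the genotypes. Members had a median of 18365 UMIs in the Fcmr+/+ library, against 17945 in the remaining cells. In the Fcmr-/- library the medians were 9982.5 and 13072, so members were shallower than the remaining cells there. The share of cells that were members was lower in deeper cells of that library, from 7.30% in the 25% of cells with the fewest UMIs to 2.15% in the 25% with the most. In the Fcmr+/+ library the same groups of cells lay between 4.22% and 6.55%, in no order of depth. After every cell was thinned to 5000 UMIs, members had a median of 1722.5 genes in the Fcmr+/+ and 1756 in the Fcmr-/- library, and remaining cells 1831 and 1830. Doublets were not called and free RNA was not estimated. The deepest member held 62677 UMIs and the deepest remaining cell 79986.

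Macrophages in tumors take up dying cells and matrix, break them down in acidic lysosomes, and store or export the lipid and iron that this releases. Mmp12, macrophage metalloelastase, is a secreted protease that cleaves elastin and other matrix proteins. Gpr137b is a lysosomal membrane protein, Bhlhe41 is a transcriptional repressor of the basic helix-loop-helix family known from alveolar macrophages and the circadian clock, and Akr1b8 is an aldo-keto reductase that reduces reactive aldehydes. Low oxygen stabilises HIF factors, which raise glycolysis and glucose uptake, while oxidants and heme release the factor NRF2, which raises glutathione synthesis, peroxide removal and iron storage. Monocytes that enter a tumor carry Ccr2 and often pass through a state with MHC class II, the molecules that show peptides to CD4 T cells.

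Mmp12 lies on chromosome 9 of GRCm38 from 7344381 to 7369499 on the plus strand, and its level, in UMIs per 1000000 UMIs of the group (CPM), was 4530 (interval 4478 to 4582) in Fcmr+/+ members and 7557 (7478 to 7637) in Fcmr-/- members. In the remaining cells it was 427 and 549 CPM. The members, 5% of cells, held 35.2% of all Mmp12 UMIs. Gpr137b had 356 CPM (342 to 371) and 352 CPM (335 to 369) in members, against 104 and 85.7 in the remaining cells. Bhlhe41 had 208 CPM (197 to 220) and 240 CPM (227 to 255) in members, against 37.0 and 29.9. Akr1b8 had 318 CPM (305 to 333) in Fcmr+/+ members but 132 CPM (122 to 143) in Fcmr-/- members, against 52.4 and 30.9 in the remaining cells. Mmp12 was higher in the Fcmr-/- and Akr1b8 in the Fcmr+/+ members. All 4 genes had a UMI in 299 members, 3 of them in 296, 2 in 98 and a single one in 25.

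**Figure D1:**
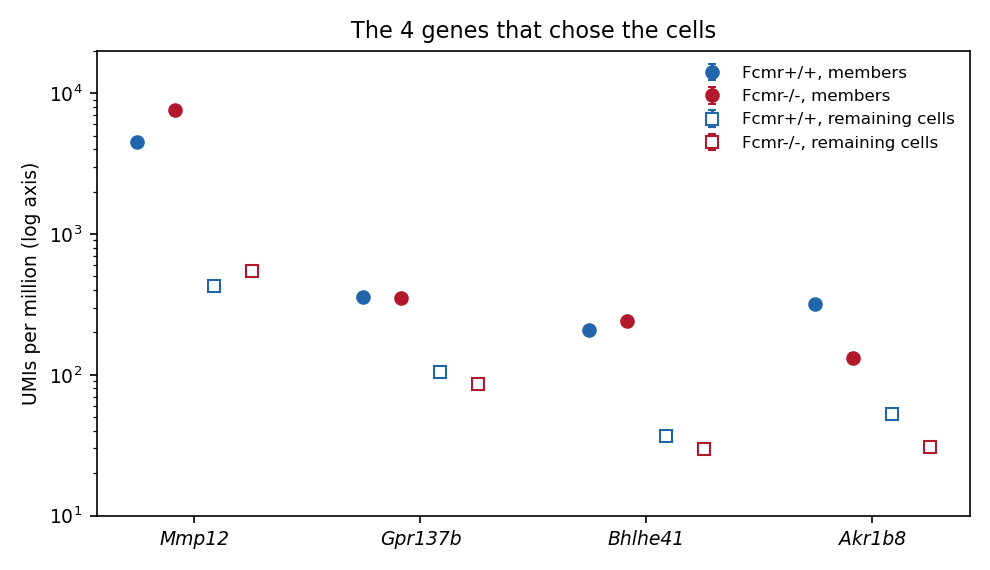
Levels of the 4 genes that chose the cells, in CPM on a log axis, in members (filled circles) and remaining cells (open squares) of the Fcmr+/+ (blue) and Fcmr-/- (red) library. Vertical bars are 95% Poisson intervals and are mostly smaller than the symbols, and Akr1b8 is the gene whose members differ most between the libraries, 318 against 132.

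The score had no gap at the limit. The 10 cells just inside it scored 14.17 to 14.21 and the 10 just outside 14.06 to 14.17, and they held 519 and 775 Mmp12 UMIs, 43 and 68 Gpr137b UMIs, 21 and 31 Bhlhe41 UMIs, and 11 and 13 Akr1b8 UMIs. Their median depths were 9391.5 and 14764 UMIs. Members had a median score of 18.4 and a highest of 79.9, and the remaining cells a median of 2.09, with 1646 of them at 0. Members made up 5.16% (interval 4.63 to 5.74) of Fcmr+/+ and 4.88% (4.41 to 5.37) of Fcmr-/- cells. The Fcmr-/- share of the members was 54.3% (50.6 to 58.0), and that of all cells kept was 55.7%. A difference in abundance between genotypes could not be tested with 1 library each, and the Fcmr-/- share moved with the score, to 47.9% without Mmp12 and 62.4% without Akr1b8.

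As a further description, cells were chosen again by 3 genes and the gene left out was read in them. The 4 genes had been picked together from these data, so this is no independent check of them. Mmp12 was 1900 CPM (1869 to 1931) in Fcmr+/+ cells chosen by the other 3 genes and 552 in the rest. In Fcmr-/- cells it was 2803 (2753 to 2854) against 740. These log2 ratios were 1.78 and 1.92. Bhlhe41 left out gave log2 ratios of 1.65 (interval 1.57 to 1.77) and 1.93 (1.84 to 2.08), and Gpr137b 1.33 (1.26 to 1.41) and 1.54 (1.47 to 1.64). For Akr1b8 they were 0.82 (0.70 to 0.96) and 0.75 (0.59 to 0.93), from 114 against 63.9 and 57.2 against 33.7 CPM. Akr1b8 had the lowest ratio of the 4 in both libraries. In expression neighborhoods computed without the 4 genes, 22.6% of the 30 nearest neighbors of a Fcmr+/+ member and 24.4% of those of a Fcmr-/- member were members. The Fcmr+/+ share was 4.38 times the library's share of members and the Fcmr-/- share 5 times, and neighbors of remaining cells were members in 3.72% and 3.40% of cases. Of the members, 31 Fcmr+/+ and 18 Fcmr-/- cells had no member among their neighbors, and most neighbors of a member were not members.

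The members carried the genes of the sort at lower levels than the remaining cells but not at 0. Fcgr1, which encodes CD64, had 129 CPM against 257 in the Fcmr+/+ and 219 against 401 in the Fcmr-/- library. Mertk had 44.5 against 63.8 and 27.1 against 49.6. Cd68, a lysosomal glycoprotein of macrophages, had 1582 against 1301 and 1560 against 1251. Of 9 macrophage markers in all, 9 were found in members of both libraries, 1 (Fcgr1) was lower by the rule used below and 0 were higher, so the name macrophage was kept. Markers of other cells the sort could hold were low. Summed markers of T and NK cells were 0.156 CPM in Fcmr+/+ and 6.25 in Fcmr-/- members, those of mast cells and basophils 0 and 0.646, and those of fibroblasts 0 and 1.08. Endothelial markers summed to 6.07 and 15.3, dendritic cell markers to 1.87 and 3.02, B cell markers to 6.53 and 3.23 and neutrophil markers to 24.6 and 47.0. Among these lists, the dendritic cell gene Cd209a, the B cell gene Cd79b and the neutrophil gene Csf3r were lower in members. Csf3r was 7.47 against 16.1 CPM in the Fcmr+/+ and 10.3 against 24.6 in the Fcmr-/- library. It was 1 of 2 neutrophil genes that passed the filter, with median log2 ratios of -0.41 and -0.15. The other, S100a8, was the most abundant neutrophil marker in members, at 16.2 and 35.5 CPM. It was higher in members than in remaining cells of both libraries, past 1.5-fold in the Fcmr-/- library alone, and was not called. The summed neutrophil markers of the remaining cells were 32.2 and 48.7 CPM. Cd209a had 1 UMI in members of each library and passed the filter through the remaining cells alone, at 5.38 and 5.54 CPM, so that it could be called in no other direction.

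Every other gene was compared between members and remaining cells within each library, as a log2 ratio after adding 1 CPM. A gene was called when it was at least 1.5-fold higher, or lower, in both libraries. Of 8554 genes with at least 5 CPM in members or in remaining cells of each library, 288 (3.37%) were higher in members in both and 620 (7.25%) were lower in both. With the members rescaled by the median ratio of well-measured genes, these counts were 394 and 416, since the median log2 ratio of all genes was -0.15 in the Fcmr+/+ and -0.12 in the Fcmr-/- library. Taken alone, the Fcmr+/+ library had 352 higher and 918 lower genes and the Fcmr-/- library 591 and 1274. Across the 8554 genes the ratios of the libraries had a Pearson correlation of 0.775 and a Spearman correlation of 0.745, where genes are not independent replicates. Past 1.5-fold, 8 genes went in opposite directions. Counts for a gene list below are of its genes that passed the same filter, some of which passed through the remaining cells or the members alone.

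**Figure D2:**
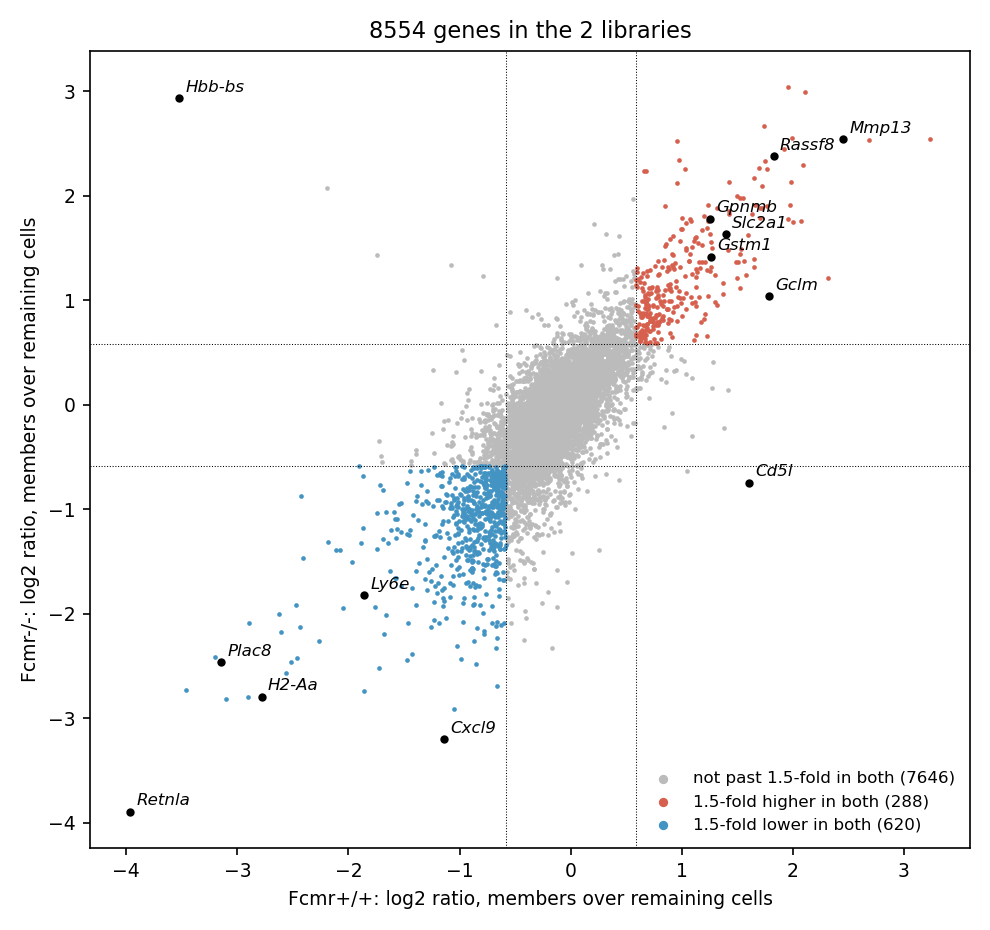
Log2 ratio of members over remaining cells for 8554 genes, Fcmr+/+ library on the x axis and Fcmr-/- library on the y axis; dotted lines mark 1.5-fold, red points the 288 genes higher and blue points the 620 lower in both, and labelled genes are black. Most called genes lie along the diagonal, and Hbb-bs and Cd5l lie off it.

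Among genes with at least 50 CPM in each library, the highest ratio was that of Mmp13, collagenase 3, a second matrix metalloproteinase that cleaves fibrillar collagen. It was 194 CPM (interval 184 to 205) in Fcmr+/+ members and 34.7 in the remaining cells. In Fcmr-/- members it was 495 (475 to 516) and in the remaining cells 84.4. A UMI of Mmp13 was found in 38.7% of Fcmr+/+ and 54.1% of Fcmr-/- members. The 10 cells with most Mmp13 held 37.6% and 24.7% of its member UMIs. The log2 ratios, 2.45 (interval 2.39 to 2.58) and 2.54 (2.49 to 2.62), were those of the pooled choice of cells, and with the top 5% taken within each library they were 2.91 and 2.27. They depended on Mmp12 being in the score: in cells chosen by the other 3 genes they were 0.95 and 0.85, still above 1.5-fold, and by a mean z score of the 4 genes 1.80 and 1.70. Mmp13 lies on chromosome 9 from 7272514 to 7283331 and belongs with Mmp12 to the same cluster of metalloproteinase genes. Of 17 metalloproteinases and inhibitors that passed the filter, 2 were higher (Mmp13 and the serpin Serpinb6a) and 1 lower. Of all genes tested, 3.37% were higher and 7.25% lower, so 1 lower of 17 was near that share. The lower gene was Timp1, an inhibitor of metalloproteinases, at 13.4 against 41.7 and 9.26 against 23.8 CPM. The list's median log2 ratio was 0.15 and 0.33.

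Ctsk, the collagen-degrading cathepsin of osteoclasts, was 298 CPM (285 to 312) against 91.5 in the Fcmr+/+ library. In the Fcmr-/- library it was 374 (357 to 392) against 77.1. It was the single higher gene of 35 lysosomal hydrolases, whose median log2 ratio was 0.01 and 0.14, and Ctsc, cathepsin C, was the single lower one. Atp6v0d2, a subunit of the vacuolar proton pump found in osteoclasts and macrophages, was 351 against 147 CPM and 338 against 108. Rragd, a GTPase that brings mTORC1 to the lysosome, was 19.6 against 5.11 and 23.7 against 3.90. With the pump subunit Atp6v1c1 these were the 3 higher of 36 genes for lysosomal membrane proteins and the proton pump, with 0 lower and medians of 0.20 and 0.32. Gpnmb, a glycoprotein of lysosome-rich and lipid-laden macrophages, was 2097 CPM (2062 to 2133) against 877 in the Fcmr+/+ and 3167 (3116 to 3218) against 921 in the Fcmr-/- library. The 1 of 35 hydrolases and 3 of 36 membrane and pump genes stand beside the 3.37% of all genes tested that were higher, and 33 of the 35 hydrolases were not called.

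Gpnmb is also expressed by melanoma cells, so the melanoma markers are given beside it. Of 8 markers 5 passed the filter and 0 were called, and all 8 had UMIs in members of both libraries. Their sum was 107 CPM in Fcmr+/+ members and 45.5 in the remaining cells, and 75.6 and 76.5 in the Fcmr-/- library. The most abundant in members was Dct at 36.1 CPM in the Fcmr+/+ library, of which 37.9% lay in 1 cell (22.5 CPM without it), and Pmel at 21.3 CPM in the Fcmr-/- library. The median log2 ratio of the 5 was 1.28 in the Fcmr+/+ and 0.15 in the Fcmr-/- library, and the Gpnmb log2 ratios were 1.26 and 1.78. The share of tumor RNA in the Gpnmb level was not tested.

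The other highest genes were of several kinds. Slc2a1, the glucose transporter GLUT1, was 360 CPM against 136 and 470 against 151. Bnip3, a receptor for the removal of mitochondria, was 469 against 194 and 474 against 189. Gstm1, a glutathione transferase, was 234 against 96.7 and 191 against 70.8. These 3 belong to the lists described next. Beyond the genes picked by rank, the list members that were not called, or that follow the first 4 called of a list, are named below as genes chosen after their values were seen. Pdgfa, a growth factor for fibroblasts and other stromal cells, was 50.6 CPM against 16.6 and 54.1 against 12.99, and its log2 ratios were 1.55 (1.43 to 1.77) and 1.98 (1.86 to 2.25). Rnf128, a membrane ubiquitin ligase, was 170 against 58.4 and 221 against 55.5. Tes, a LIM protein of focal adhesions, was 146 against 45.5 and 173 against 45.1. Rassf8, Esyt2, Gde1, Esd and the histone genes Hist1h1c and Hist1h2bc complete the 15, with log2 ratios between 1.26 and 2.37. Every one of the 15 had its interval above 1.5-fold in both libraries.

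**Figure D3:**
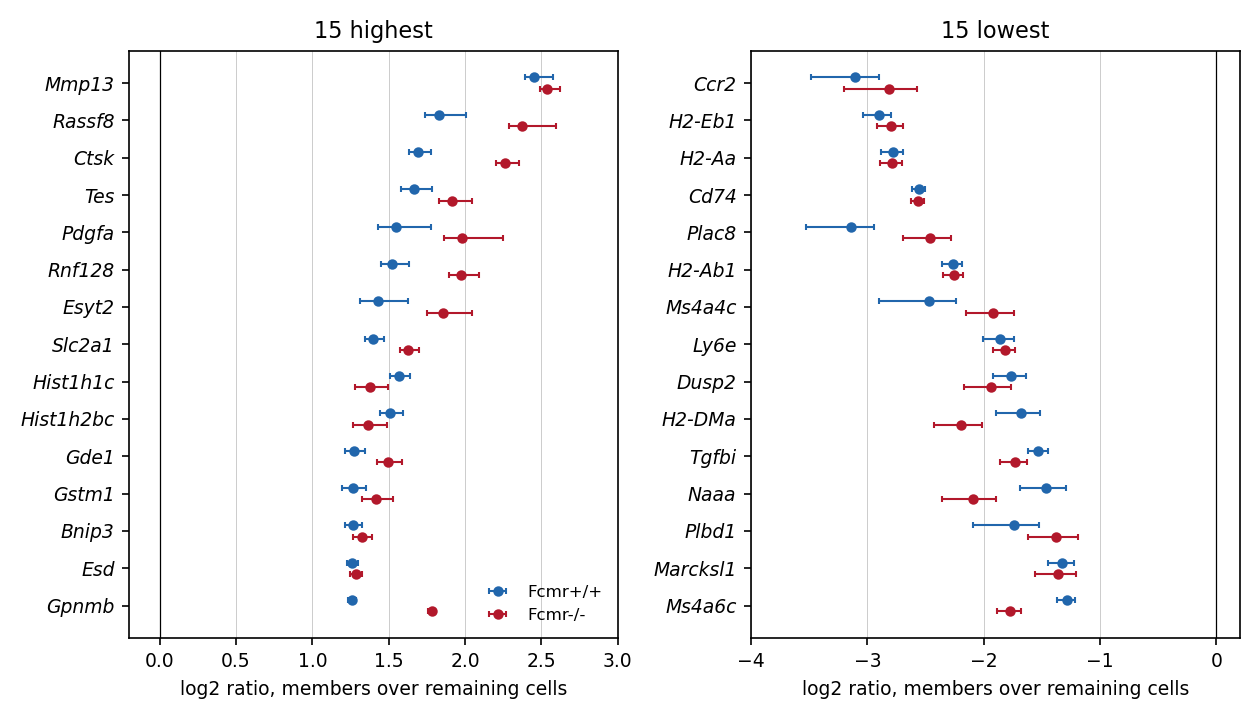
Log2 ratio of members over remaining cells for the 15 highest (left) and 15 lowest (right) genes with at least 50 CPM, ranked by the weaker of the libraries; points are ratios after adding 1 CPM, Fcmr+/+ blue and Fcmr-/- red, and bars are 95% intervals of the ratio without the added CPM, counting error only. Mmp13 leads the left panel at 2.45 and 2.54, and 5 of the genes in the right panel, with H2-Eb1 and H2-Aa at about -2.8, belong to MHC class II presentation.

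Sequences upstream of 4 genes, Mmp13, Mmp12 and the redox genes Srxn1 and Gclm described next, are shown as windows of matrix protease and redox genes in which short motifs known in such genes were found. They were chosen after the matches were seen, and the windows of Ctsk, Gpnmb, Rnf128, Tes, Gstm1, Slc2a1, Bnip3, Gde1 and Esd, all among the 15 highest genes, held neither an AP-1 site nor the antioxidant core. The first of the Pdgfa windows held the antioxidant core. The sequences are the 250 bases before the RefSeq start on GRCm38.p6, 5′ to 3′, all on the plus strand. Capitals mark TGACTCA or TGAGTCA (the AP-1 site on either strand), TGACNNNGC (the core of the antioxidant response element, either strand, here in reverse as GCACCGTCA) and TATAAA.
Mmp13, chr9:7272264-7272513, in no annotated gene: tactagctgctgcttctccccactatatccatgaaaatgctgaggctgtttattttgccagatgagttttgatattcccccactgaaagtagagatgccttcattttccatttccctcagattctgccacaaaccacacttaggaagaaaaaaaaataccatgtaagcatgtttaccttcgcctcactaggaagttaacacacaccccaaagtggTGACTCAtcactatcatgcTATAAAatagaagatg
Mmp12, second RefSeq start, chr9:7347124-7347373, within the Mmp12 gene and outside its exons: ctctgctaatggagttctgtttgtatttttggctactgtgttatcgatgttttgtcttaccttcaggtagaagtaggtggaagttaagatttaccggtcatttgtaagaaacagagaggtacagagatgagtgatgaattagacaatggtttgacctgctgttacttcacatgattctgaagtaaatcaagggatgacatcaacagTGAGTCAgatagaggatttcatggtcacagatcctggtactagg
Srxn1, chr2:152105274-152105523, with 8 bases in its first exon: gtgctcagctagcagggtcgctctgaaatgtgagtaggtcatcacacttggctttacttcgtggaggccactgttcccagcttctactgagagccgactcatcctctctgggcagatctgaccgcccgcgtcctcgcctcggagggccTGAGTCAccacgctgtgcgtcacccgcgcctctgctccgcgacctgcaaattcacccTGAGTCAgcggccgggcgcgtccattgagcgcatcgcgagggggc
Gclm, chr3:122245307-122245556, in no annotated gene: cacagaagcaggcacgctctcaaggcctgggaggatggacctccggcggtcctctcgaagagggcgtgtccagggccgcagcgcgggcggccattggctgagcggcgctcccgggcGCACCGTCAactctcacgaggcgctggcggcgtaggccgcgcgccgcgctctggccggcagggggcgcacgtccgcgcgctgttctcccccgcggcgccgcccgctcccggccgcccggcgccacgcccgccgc
The Mmp13 window held an AP-1 site 35 bases and TATAAA 16 bases before the start. The Mmp12 window held an AP-1 site 44 bases before its start, and the window of the first Mmp12 start held none of the motifs searched. Srxn1 had AP-1 sites 102 and 45 bases before its start, and Gclm the antioxidant core 134 bases before its start.

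Across the 32851 RefSeq promoters the AP-1 site was in 4.46%, the antioxidant core in 10.2%, CACGTG (the E-box read by Bhlhe41 and by lysosomal regulators, its own reverse complement) in 6.02% and TATAAA in 12.4%. Of genes with a promoter in the table, 262 of 6668 tested genes (3.93%) held an AP-1 site, as did 18 of 209 higher genes (8.61%) and 19 of 463 lower genes (4.10%). The antioxidant core was in 14.3% of tested, 16.7% of higher and 15.8% of lower genes. CACGTG was in 10.9%, 11.0% and 9.72% of them. These are matches of letters in a window and say nothing of which factor was bound. The promoters of Gpr137b, Rassf8 and Atp6v0d2 are not shown.

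Next come the genes known to respond to NRF2, with other genes against oxidants. Of 27 that passed the filter, 12 were higher and 0 lower, with median log2 ratios of 0.69 and 0.58. The share of all genes tested that were higher was 3.37%. In cells chosen without Akr1b8, itself an oxidant-responsive reductase, 6 of 26 were higher and 0 lower. Gclm, the modifier subunit of the enzyme that limits glutathione synthesis, was 345 CPM (331 to 360) against 99.1 in the Fcmr+/+ and 167 (156 to 180) against 80.9 in the Fcmr-/- library. Srxn1, which repairs oxidised peroxiredoxins, was 188 against 62.5 and 121 against 50.8. The peroxidase Prdx1 was 5412 against 2342 and 4299 against 2356, and Hmox1, which breaks down heme, was 5336 against 2874 and 2706 against 1683. Gclm, Srxn1, Prdx1 and Hmox1 had larger ratios in the Fcmr+/+ library. The iron store subunits Fth1 and Ftl1 had nearly equal ratios in both, 0.98 and 1.02 for Fth1 and 0.80 and 0.79 for Ftl1. Fth1 alone had 50042 CPM in Fcmr+/+ and 48954 CPM in Fcmr-/- members. The list summed to 100910 CPM against 54116 and 91835 against 49737, so a large part of that sum was ferritin. Catalase (Cat) was 193 against 76.5 and 123 against 62.9. The transcript of NRF2 itself, Nfe2l2, was 256 against 332 and 266 against 309, not called. Slc7a11, a cystine carrier, was 76.2 against 68.5 and 156 against 74.0, also not called.

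Of the genes of the response to low oxygen and of glycolysis, 18 of 33 were higher and 0 lower, with medians of 0.67 and 0.75. In cells chosen without Mmp12, 10 of the 33 were higher and 0 lower. Adm, the vasodilator adrenomedullin, was 67.5 CPM (61.3 to 74.2) against 9.64 and 48.3 (42.1 to 55.0) against 7.51, log2 ratios of 2.69 and 2.53. P4ha2, a collagen prolyl hydroxylase, was 29.3 against 8.29 and 33.8 against 9.10. The glycolytic enzyme Aldoa was 1948 against 1003 and 2179 against 1129, and Ldha, lactate dehydrogenase, 1748 against 1090 and 1844 against 1122. Ndrg1, a marker of low oxygen, was 465 against 211 and 509 against 167. Vegfa, the main angiogenic factor of that response, was not called, at 117 against 108 in the Fcmr+/+ and 280 against 149 in the Fcmr-/- library. Its levels thus differed between members and remaining cells in the Fcmr-/- library by 0.90 on the log2 scale and in the Fcmr+/+ library by 0.12. Of 39 transcription factors 1 was higher, beside 3.37% of all genes tested. It was Epas1, which encodes HIF-2 alpha, at 14.0 against 7.33 and 21.5 against 5.04. Hif1a was 90.4 against 114 and 123 against 135. The lower factors were Id3, Nr4a1 and Maf, a count near the 7.25% of all genes tested that were lower. The lysosomal factors Mitf, Tfeb and Tfe3 differed by less than 1.5-fold.

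**Figure D4:**
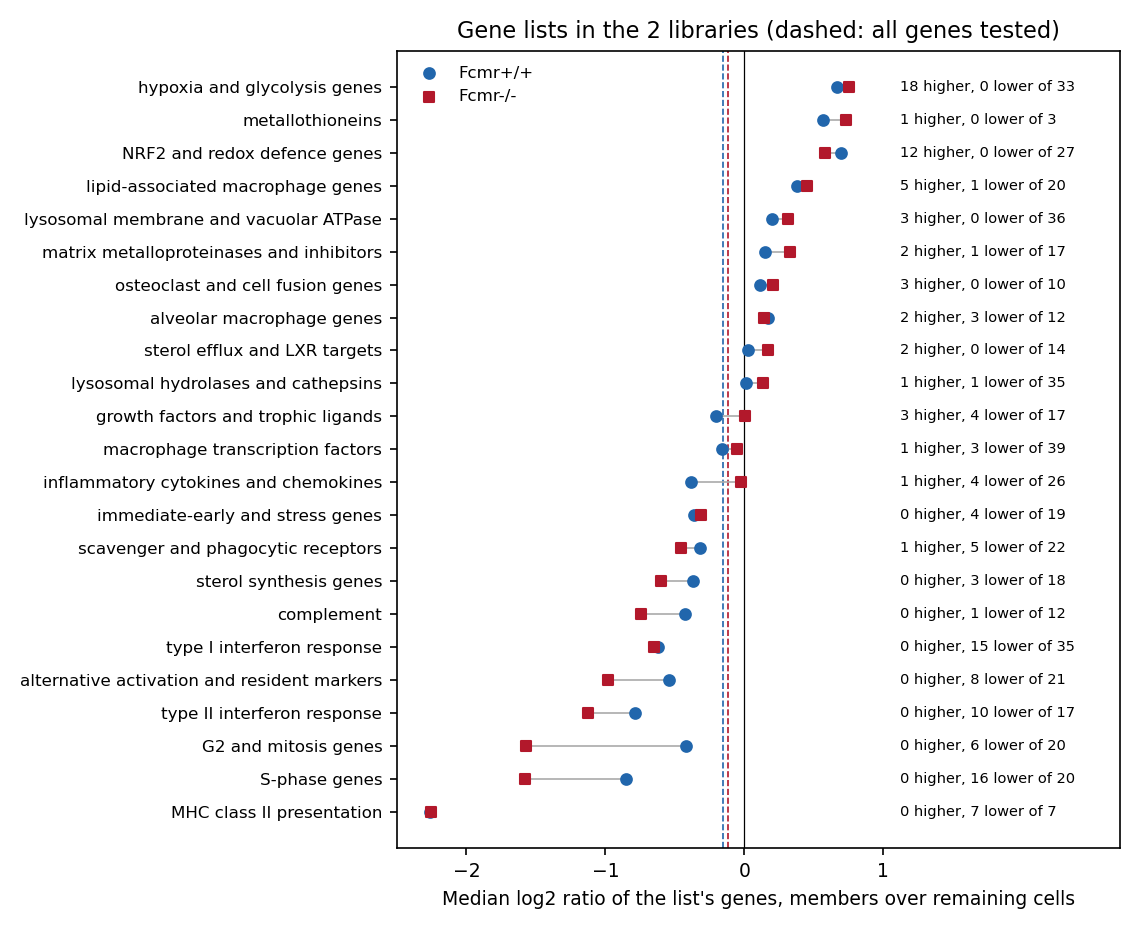
Median log2 ratio of members over remaining cells for lists of pathway genes, Fcmr+/+ blue circles and Fcmr-/- red squares, with dashed lines at the medians of all genes tested, -0.15 and -0.12, and at the right the genes of each list called higher or lower of those that passed the filter. Hypoxia, redox defence and metallothionein lists lie furthest right and MHC class II furthest left.

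Among lipid-associated macrophage genes 5 of 20 were higher and 1 lower, with medians of 0.38 and 0.45. Cd36, a receptor for oxidised lipids, was 1005 CPM against 470 and 1216 against 511. The tetraspanin Cd9 was 623 against 304 and 772 against 329, and the fatty acid carrier Fabp4 895 against 511 and 791 against 397. Gpnmb and the galectin Lgals3 were the other two. Trem2, a receptor of lipid-associated macrophages, was 851 against 726 and 638 against 579 and was not called. The lower gene was Axl, a receptor for dying cells, at 17.4 against 38.1 and 18.3 against 62.1. Of all genes tested, 3.37% were higher and 7.25% lower, and these shares stand beside every count in this paragraph. Of genes for sterol efflux and targets of the nuclear receptor LXR, Scd2 and Abcg1 were higher (2 of 14, 0 lower). Of genes for sterol synthesis 3 of 18 were lower, among them Idi1 and Cyp51. Osteoclast genes had 3 of 10 higher, Ctsk, Atp6v0d2 and the integrin Itgb3, and the last rested on few UMIs, 38 and 25, with 39.5% of those of the Fcmr+/+ library in 1 cell. Itgb3 passed the filter through the members alone, so it could be called only higher, and without that cell its Fcmr+/+ level, 3.59 CPM, would not have passed. Alveolar macrophage genes, among which Bhlhe41 is known to act, had 2 higher (Fabp4 and Atp6v0d2) and 3 lower (Ear2, Chil3 and Olr1) of 12. Of the metallothioneins Mt2 was higher, at 843 against 424 and 335 against 113.

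Secreted growth factors were split. Igf1 was 575 CPM against 307 and 480 against 225, and Pdgfa and Csf1 were the other higher genes of 17. Fn1, fibronectin, was 155 against 566 and 221 against 503, and Tgfbi, Areg and Osm were also lower. Beside these counts, 3.37% of all genes tested were higher and 7.25% lower. Spp1, osteopontin, was 3892 against 2657 and 9484 against 4847 and was not called, since its Fcmr+/+ log2 ratio was 0.55. Of cytokines and chemokines Il1rn, the antagonist of interleukin-1, was the single higher gene of 26, at 479 against 306 and 785 against 395, again a count near the 3.37% of all genes. Il1b was lower at 520 against 1704 and 1167 against 1983, as were Ccl7, Ccl5 and Il18.

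MHC class II genes had the lowest medians of the pathway lists. Of 10 listed genes 7 passed the filter, and each of these was lower in both libraries, with medians of -2.27 and -2.26. The share of all genes tested that were lower was 7.25%. H2-Aa was 147 CPM (138 to 157) against 1019 in the Fcmr+/+ and 208 (195 to 221) against 1446 in the Fcmr-/- library. Cd74, the invariant chain, was 405 against 2394 and 575 against 3415, and H2-Eb1 was 89.6 against 676 and 140 against 975. Ciita, the factor that drives these genes, did not pass the filter, with 0.467 against 2.45 and 0.215 against 5.55. H2-DMb2 passed through the remaining cells alone, where it had 6.58 and 6.49 CPM.

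Monocyte markers were lower in 6 of the 8 that passed, beside 7.25% of all genes tested. Their medians were -2.68 and -2.01 and their sums 673 against 1574 and 756 against 1627 CPM. Ccr2, the receptor by which monocytes leave the marrow, was 15.1 CPM (12.2 to 18.4) against 137 and 19.0 (15.2 to 23.4) against 139. Ly6c2 was 2.64 against 32.6 and 20.03 against 111. Plac8 was 15.4 against 144 and 42.9 against 240, and 37.4% of its UMIs in Fcmr+/+ members lay in 1 cell. S100a4 was the most abundant marker in members and was not called, at 609 against 1092 and 587 against 860. Ms4a4c, Ly6e, Dusp2, H2-DMa, Tgfbi, Naaa, Plbd1, Marcksl1 and Ms4a6c were also among the 15 lowest, with log2 ratios between -2.47 and -1.29.

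Markers of alternatively activated and resident macrophages were lower in 8 of 21, with 0 higher. The shares of all genes tested, 3.37% higher and 7.25% lower, stand beside each list of this paragraph. Retnla, a secreted protein induced by interleukin-4, was 4.05 CPM (2.64 to 5.93) against 77.7 and 1.72 (0.744 to 3.40) against 39.5, and Mgl2, Chil3 and Cd163 were lower too. Retnla, like the alveolar gene Ear2, passed the filter through the remaining cells alone and could be called only lower. Interferon genes were called in 1 direction only, for part of each list. Of 35 type I interferon genes 15 were lower (8 when members were rescaled by the median ratio), with medians of -0.62 and -0.65, among them Ly6e at 75.6 against 277 and 199.5 against 707 and the DNA sensor Zbp1 at 17.9 against 48.5 and 42.4 against 130. Of 17 type II interferon genes 10 were lower, with medians of -0.79 and -1.13. The chemokine Cxcl9 was 20.03 against 192 in the Fcmr-/- library, and in the Fcmr+/+ library, at 6.22 against 14.9, 82.5% of the members' UMIs lay in 1 cell. Rsad2 was not called, at 175 against 174 and 387 against 241. Scavenger receptors had 1 higher (Cd36) and 5 lower of 22, and complement 1 lower (C4b) of 12, where 7.25% of all genes tested were lower. Immediate-early genes had 4 of 19 lower and 0 higher, among them Btg2 and Ier2.

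Of the cell cycle genes, 16 of 20 for S phase were lower, with medians of -0.85 and -1.58, and 6 of 20 for G2 and mitosis, where 14 were not called. Beside these counts, 7.25% of all genes tested were lower. The S phase count depended on the processing: after thinning to 5000 UMIs 0 of 18 were lower in both libraries, and with the score without Mmp12 1 of 20. Over the alternatives the S phase medians lay between -1.07 and -0.26 in the Fcmr+/+ and between -1.80 and -0.44 in the Fcmr-/- library. The alternatives include the one that left out cells by these same genes. Mcm3, a subunit of the replicative helicase, was 20.4 CPM against 49.6 and 14.6 against 45.5. Top2a, the topoisomerase of dividing cells, was 41.7 against 66.9 and 14.0 against 74.3. The medians of the G2 and mitosis genes, -0.42 and -1.57, lay further apart in the libraries than those of any other list in the plot of gene lists. Without the cells highest in cell cycle genes, an alternative that takes such cells from both sides, they were 0.12 and -0.10. Those cells were chosen by the same genes that were then read. The choice itself narrows these medians, so they describe no trait of the members.

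The members were not uniform. Sorted by the gene that gave most of its score, a member was led by Mmp12 in 112 Fcmr+/+ and 198 Fcmr-/- cells, by Akr1b8 in 117 and 53, by Bhlhe41 in 75 and 111 and by Gpr137b in 24 and 28. None of these calls rested on 1 UMI. The Mmp12-led cells held most Mmp13, at 473 CPM in the Fcmr+/+ and 803 in the Fcmr-/- library. In Akr1b8-led cells Mmp13 was 71.3 and 109, against 34.7 and 84.4 in the remaining cells. In Gpr137b-led cells it was 26.9 in the Fcmr+/+ library, below the remaining cells, and 188 in the Fcmr-/- library. For Gclm the order was the other way, with 575 and 354 CPM in Akr1b8-led cells and 141 and 135 in Mmp12-led cells, against 99.1 and 80.9 in the remaining cells. Srxn1 followed Gclm, with 279 and 192 in Akr1b8-led and 98.6 and 111 in Mmp12-led cells. Slc2a1 was lowest in Akr1b8-led cells, 220 and 248, and 451 and 542 in Mmp12-led cells.

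Mmp13 on one side and Gclm and Srxn1 on the other were thus highest in different members, while some features were common to all 4 groups. The summed redox list lay between 91594 and 108818 CPM in the Fcmr+/+ and between 83557 and 94609 in the Fcmr-/- groups, above 54116 and 49737 in the remaining cells. Ctsk was 239, 448, 319 and 308 CPM in Fcmr+/+ cells led by Mmp12, Gpr137b, Bhlhe41 and Akr1b8, and 461, 459, 293 and 172 in Fcmr-/- cells, each above the remaining cells at 91.5 and 77.1. These are sums over groups: Ctsk had a UMI in 49.1% of Fcmr+/+ and 57.4% of Fcmr-/- members. The 10 cells with most Ctsk held 45.5% and 30.6% of its member UMIs. Gpnmb lay between 1685 and 2551 CPM in the Fcmr+/+ groups and between 2362 and 3561 in the Fcmr-/- groups, above 877 and 921 in the remaining cells. Summed MHC class II genes lay between 421 and 1463 CPM in the Fcmr+/+ groups and between 607 and 1522 in the Fcmr-/- groups, below 5139 and 7362 in the remaining cells. Summed hypoxia and glycolysis genes lay between 16417 and 24046 CPM over both libraries, above 12583 and 13117. Since the grouping used the 4 levels of the same cells and the libraries held different numbers of each, a value of all members mixes these groups in proportions that differ between the genotypes.

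**Figure D5:**
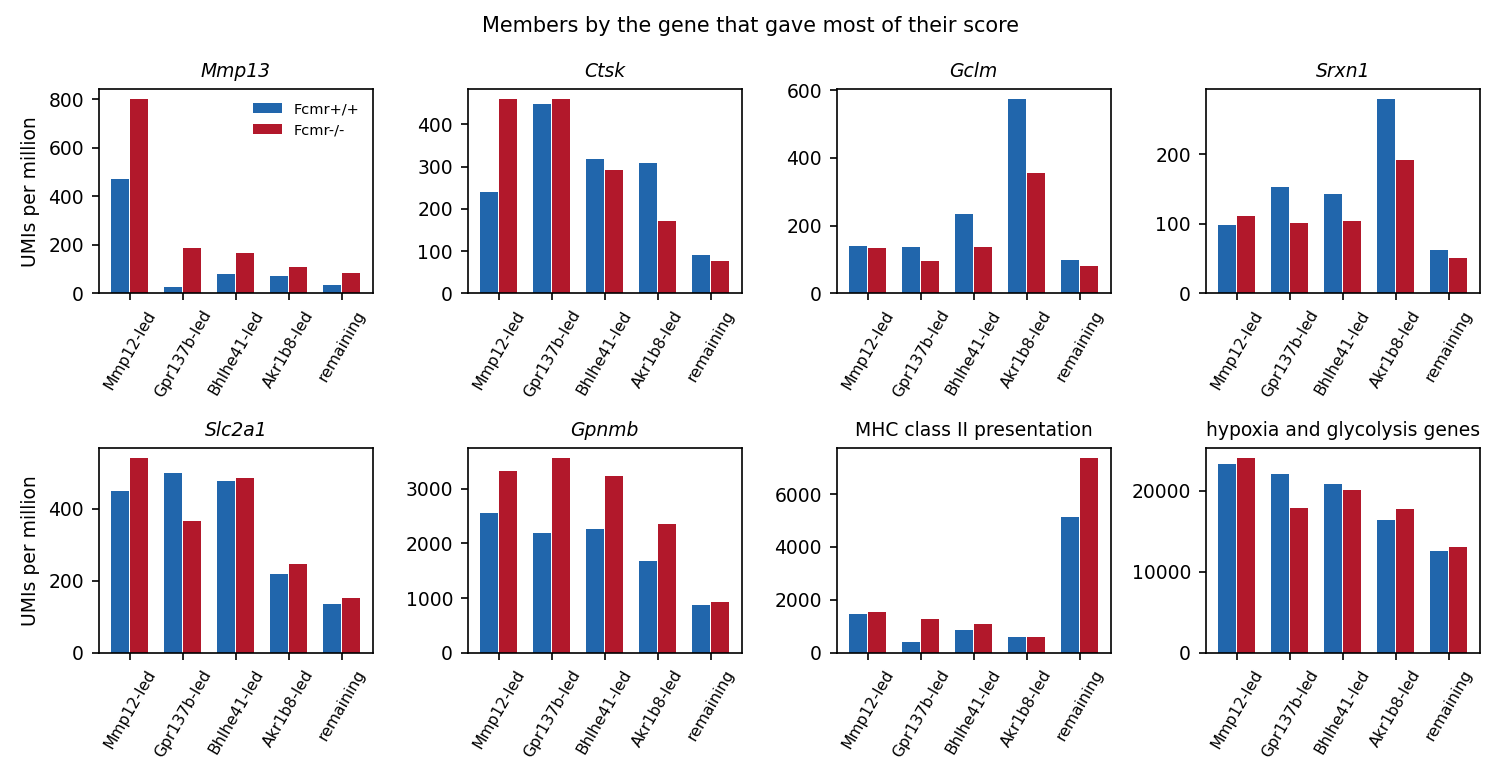
Levels in CPM of 6 genes and of 2 summed gene lists in members grouped by the gene that gave most of their score, and in remaining cells, for the Fcmr+/+ (blue) and Fcmr-/- (red) library, with no error bars since each bar is 1 summed group of cells. Mmp13 is highest in Mmp12-led cells, Gclm and Srxn1 in Akr1b8-led cells, and MHC class II is below the remaining cells in every group.

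Levels were also read along the score. The 718 cells ranked next after the members had 98.4 CPM Mmp13 in the Fcmr+/+ and 305 in the Fcmr-/- library, and the 718 after those 63.9 and 186. Cells with a score of 0 had 11.5 and 37.1. Ctsk went from 298 and 374 in members to 177 and 228 in the next cells and 16.2 and 33.7 in cells at 0. Gpnmb went from 2097 and 3167 to 1776 and 2533, and to 285 and 384 in cells at 0. H2-Aa went the other way, from 147 and 208 in members to 237 and 431 in the next cells and 2508 and 2467 in cells at 0, which had a median depth of 10113 UMIs in the Fcmr+/+ library. H2-Aa in the Fcmr-/- library differed more between members and the next cells than between those and the cells after them, at 454 CPM. The number of members was set by the 5% taken.

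Hypoxia genes were high in members and also define another group of the same size, the 718 cells highest in Egln3, Ndrg1, Bnip3 and Slc2a1. The groups shared 113 cells, 15.7% of each. Beside the members' medians of 0.67 and 0.75 for hypoxia and glycolysis genes, the hypoxic cells had 1.28 and 1.49 against their own remaining cells. Several of the members' 15 highest genes were as high or nearly so there. Mmp13 had log2 ratios of 2.38 and 2.16 in hypoxic cells, near the members' 2.45 and 2.54. Tes had 1.96 and 1.95, Rassf8 1.75 and 2.09, Gde1 1.67 and 1.53, and Hist1h1c 1.65 and 1.18. Slc2a1 and Bnip3, which chose the hypoxic cells, were at 3.02 and 3.02 and at 2.36 and 2.46. Mmp12 itself was at 1.91 and 2.15. The redox list had medians of -0.26 and -0.44 in hypoxic cells, beside -0.34 and -0.26 for all genes of that comparison, and 0.69 and 0.58 in members. Its sum was 78494 and 72341 CPM in hypoxic cells and 100910 and 91835 in members. Ctsk had log2 ratios of -0.15 and 0.74 in hypoxic cells, Gpnmb -0.11 and 0.16, and Rnf128 -0.15 and 0.30. Type I interferon genes had medians of 0.50 and 0.41 in hypoxic cells and -0.62 and -0.65 in members. MHC class II genes had -0.35 and -0.79 in hypoxic cells and -2.27 and -2.26 in members. Other lists low in members had lower medians in hypoxic cells. These were -1.90 and -2.22 for S phase, -2.37 and -2.64 for G2 and mitosis, -0.97 and -1.16 for alternative activation and resident markers, and -0.45 and -0.82 for sterol synthesis. With 1 library per genotype these differences between the groups had no test. With the hypoxic cells left out on both sides, an alternative chosen after seeing the data, 283 and 322 members were left, 282 genes were higher and 572 lower, 14 of 27 redox genes were higher, and Mmp13 had log2 ratios of 2.41 and 2.36. The 718 cells highest in MHC class II genes shared 2 cells with the members, and the 718 highest in Mrc1, Cd163 and Folr2 shared 16.

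Levels in members were also compared between the genotypes. Genotype and library cannot be told apart here, and the groups by leading gene above were present in different proportions. Of 2604 genes with at least 50 CPM in members of either library, 124 (4.76%) were at least 1.5-fold higher and 77 (2.96%) lower in Fcmr-/- than in Fcmr+/+ members, and the Fcmr-/- over Fcmr+/+ ratios of members and of remaining cells had a Pearson correlation of 0.669 and a Spearman correlation of 0.530 across these genes. For 95.7% the ratio was within 1.5-fold of that in the remaining cells, a share to which the many genes that differed little in either contribute. Type I interferon genes had a median log2 ratio of Fcmr-/- over Fcmr+/+ of 0.73 in members and 0.56 in remaining cells, and MHC class II genes 0.49 and 0.52. The redox list had -0.35 and -0.23, and hypoxia and glycolysis genes 0.36 and 0.12. Cell cycle lists stood further apart, with -0.71 in members and -0.08 in remaining cells for S phase, and -1.11 and -0.05 for G2 and mitosis. So did monocyte markers, with 1.38 and 0.36, and melanoma markers, with -0.37 and 0.67. Both rested on genes with few UMIs. The summed monocyte markers were 673 CPM in Fcmr+/+ and 756 in Fcmr-/- members, and Ly6c2 had 17 and 93 UMIs. For the melanoma marker Dct, 37.9% of the UMIs of Fcmr+/+ members lay in 1 cell.

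The single genes that follow were those whose genotype ratio in members lay furthest above or below that in remaining cells. Mmp8, neutrophil collagenase, was 36.3 CPM (31.7 to 41.2) in Fcmr+/+ and 264 (250 to 280) in Fcmr-/- members, a log2 ratio of 2.83 against 1.43 in remaining cells, beside the summed neutrophil markers of 24.6 and 47.0 CPM given above, whose part in it was not tested. Thbs1, thrombospondin-1, was 390 and 1414, with 1.86 against 0.29. Nos2, inducible nitric oxide synthase, was 11.5 and 104, with 3.07 against 2.03. Il1a was 117 and 246, with 1.06 against -0.13. Fbxo32, Stx11, Cx3cr1, Cd200, Tnfrsf9 and Mfge8 were the others of the 10 highest. Some of these rested on few cells. Of the UMIs of Fcmr+/+ members, 44.0% for Tnfrsf9 and 33.3% for Mfge8 lay in 1 cell, and the Tnfrsf9 level without it was 11.7 CPM in place of 20.8. For Cx3cr1, 76.5% of Fcmr+/+ and 81.6% of Fcmr-/- member UMIs lay in 10 cells. At the other end, Cd5l, a secreted protein of resident macrophages, was 73.4 CPM (67.0 to 80.4) in Fcmr+/+ and 4.74 (2.97 to 7.18) in Fcmr-/- members, a log2 ratio of -3.70 against -1.35. It rested on few cells: 73.3% of its UMIs in Fcmr+/+ members lay in 10 cells, and 59.1% of those in Fcmr-/- members lay in 1 cell, without which the level was 1.95 CPM. The iron exporter Slc40a1 was 91.2 and 32.3, and the proliferation marker Mki67 65.8 and 21.8. Ccl12, Selm, Ccl8, Ccnd1, Birc5, Cbr2 and Ube2c were the other lowest. Among the 4 genes that chose the cells, Mmp12 had a genotype ratio of 0.74 in members and 0.36 in remaining cells, and Akr1b8 -1.26 and -0.74.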

How the data were processed

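The deposited files held raw UMI counts for 27998 genes in 2 libraries of the 10X Chromium 3' kind, made by the authors with Cell Ranger 2.0.1 on GRCm38, and Seurat 2.1.0 is named in the submitters' processing notes. No counts were normalized before deposit. The members and the gene lists were chosen with earlier results of these data known. Cells were filtered, scored and summed within each library, and counts were expressed per 1000000 UMIs of the group (CPM). With 1 library per genotype no test over replicates was possible. Genes named in the text were the 4 that chose the cells, Fcmr, the 15 highest and 15 lowest with at least 50 CPM by the weaker log2 ratio, the first 4 called of each list in each direction, and the 10 highest and 10 lowest between genotypes, and others as stated. Some genes that the rule names are not reported here. Neighbors came from 10 principal components of 2000 variable genes on log values of counts scaled to 10000 per cell. Python 3.11.15, numpy 2.4.6, scipy 1.17.1, pandas 2.3.3 and scikit-learn 1.9.0 were used, and the steps were tested on simulated data. Alternatives changed the score, the share of cells taken, the filters, the scaling, the pseudocount and the depth.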

Additional observations from a re-analysis of the deposited data

Results flagged for a closer look

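For 2 of the genes on the lists used here, both of hemoglobin, the ratio of members over remaining cells was past 1.5-fold in opposite directions in the libraries, and in each case the difference between the genotypes was not tested. For the hemoglobin gene Hbb-bs the log2 ratio was 6.46 higher in the Fcmr-/- library, at 0.311 against 14.1 CPM in Fcmr+/+ and 48.9 against 5.53 CPM in Fcmr-/- cells, and all 227 Fcmr-/- member UMIs lay in 1 cell. For Hba-a1 it was 4.27 higher, at 0.467 against 5.70 and 15.3 against 2.87 CPM, with 98.6% of the Fcmr-/- member UMIs in 1 cell.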

How the results depend on the processing

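No paired analysis was possible because each genotype had 1 library, and leaving out a library leaves no comparison of libraries. Over the alternatives, the genes higher in members numbered 190 to 394 beside 288, and the lower genes 331 to 914 beside 620. The higher count was 190 with a filter of 20 CPM. The lower count was 335 with the top 10% of cells, 334 with the score without Mmp12, 375 with a pseudocount of 5 and 331 with the filter of 20 CPM. The Fcmr-/- share of members was 47.9% with the score without Mmp12 and 62.4% without Akr1b8, beside 54.3%. After thinning to 5000 UMIs, 189 of the 288 and 312 of the 620 genes were called again. The median of the red cell markers in the Fcmr-/- library, 2.505, became -2.51 with the score without Mmp12, -3.08 with a mean z score and -3.07 with members holding UMIs of at least 3 of the 4 genes. The cause was not tested. Of 1020 values of the 15 highest and 15 lowest genes under 17 alternatives, 554 stayed within their interval, 466 moved and 0 changed sign, and other named genes were not run. Chosen after seeing the data, leaving out the cells highest in melanoma markers gave 294 higher and 609 lower genes, those highest in cell cycle genes 301 and 533, and those highest in monocyte markers 275 and 637.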

Other observations

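Of the other genes with opposite ratios in the libraries, Cd5l was 73.4 CPM in members against 23.5 in remaining cells of the Fcmr+/+ library and 4.74 against 8.62 in the Fcmr-/- library, with 59.1% of the Fcmr-/- member UMIs in 1 cell. Hspb1, Ifnb1, Saa3 and Lsmem1 had log2 ratios of 1.05, -1.75, -1.08 and -0.79 in the Fcmr+/+ library and -0.63, 1.43, 1.34 and 1.23 in the Fcmr-/- library. These rested on few cells: 43.7% of the Hspb1 UMIs of Fcmr+/+ members lay in 1 cell, without which the level was 22.3 CPM against 18.6 in remaining cells, and 48.1% of the Ifnb1 UMIs and 31.1% of the Saa3 UMIs of Fcmr-/- members lay in 1 cell each. These genes were chosen after their values were seen, and the differences between the libraries were not tested.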
